A study of Drosophila melanogaster with 55 samples.

Results

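The pericentromeric heterochromatin of chromosome arm 2L was taken as every ChIP-seq peak on 2L with its midpoint above 22 Mb in the dm6 assembly of Drosophila melanogaster. The rule used position alone and took 3425 of 117981 peaks in 29 peak lists. The stretch is called the block here. It ran over 1.51 Mb, to the last base under any peak at 23513712. A further 9695 peaks lay on the rest of 2L, and 23967 lay in the pericentromeric parts of chromosome 3, taken as 3L above 23 Mb and 3R below 4 Mb. The RefSeq gene table (assembly Release 6 plus ISO1 MT) placed 61 of 17807 genes of the main chromosomes in the block, among them 37 protein-coding genes, 15 long non-coding RNAs and 7 pseudogenes.

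Constitutive heterochromatin packs the repeat-rich DNA around centromeres and carries methylation of lysine 9 on histone H3 (H3K9me2 and H3K9me3), which is bound by HP1. In flies one of the enzymes that writes this mark is SetDB1, also called Eggless, and H3K9 methylation first builds up in the early embryo as the zygotic genome is switched on. Acetylation of lysine 14 on the same histone (H3K14ac) is usually found at active promoters, and Gcn5 is an acetyltransferase. The block on 2L is known for genes such as light (lt) and concertina (cta), which work inside heterochromatin, and lt is known to be silenced when it is moved away from it.

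The series asked how H3K14ac and SetDB1 relate to the setting up of heterochromatin in early embryos. Embryos with a Gcn5 knockdown carried GFP-SetDB1, nos-Gal4 and Gcn5 RNAi, and embryos with a w knockdown carried GFP-SetDB1, nos-Gal4 and w RNAi. Both were at stage 5, and nos-Gal4 drives the hairpin in the female germline, so the knockdown acts on what the mother puts into the egg. In the second experiment embryos carried GFP-SetDB1 F578A over CyO, in which a phenylalanine of SetDB1 is replaced by alanine, or GFP-SetDB1 WT over CyO. CyO is a balancer of chromosome 2, so in both of these groups the 2L copies of the balancer and of the other chromosome cannot be told apart. Embryos of the white-eyed strain w1118 were taken at stages 4, 5 and 6. The knockdown, F578A and WT groups had 2 libraries per antibody, each called against input, and w1118 had 1 library per mark and stage. No label said whether the replicates were separate collections, so the p-values measure only the spread between these libraries, which may be technical. Peak calls rested on 1.43 to 9.43 M fragments per ChIP library. The depth of the w1118 lists and the stage of the F578A and WT ChIP embryos are not given in the sources used here. The RNA-seq samples of F578A and WT are labelled as stage 5 embryos.

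A comparison of 2 against 2 libraries cannot give an exact two-sided permutation p below 0.33, so no difference could pass 0.05 by this test. Values of every library therefore come before each comparison, and "higher" and "lower" describe those values. Across the 5 comparisons of groups the exact p was 0.33 wherever the 2 groups did not overlap, and adjustment for several measures could only raise it. Fold enrichment is the authors' value for each peak over its control, averaged here with each peak weighted by its length.

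H3K9 methylation was dense in the block, as its label says, but not from its first base. H3K9me3 peaks covered 30.8% and 34.1% of the block in the Gcn5 knockdown, 21.4% and 20.8% in the w knockdown, 17% and 16.1% in F578A and 26.8% and 27.1% in WT. They covered, on the rest of 2L, 1.47% and 1.85% in the Gcn5 knockdown, 1.11% and 1.17% in the w knockdown, 1.03% and 0.801% in F578A and 1.68% and 1.53% in WT. In w1118 embryos at stages 4, 5 and 6 H3K9me2 covered 23.7%, 17.3% and 28.4% of the block, against 1.1%, 0.948% and 1.12% of the rest of the arm. H3K9me3 covered 13.9%, 11.1% and 22.52% of the block at the same stages, against 0.663%, 0.559% and 0.950% of the rest of the arm. The share in the block was 15.9 to 25.4 times that on the rest of the arm over the 14 lists of these marks.

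The first 200 kb of the block held almost no H3K9 methylation. This boundary was chosen after the values along the block were seen. H3K9me3 peaks covered 0% of that stretch in both w knockdown libraries, both F578A libraries, both WT libraries and at all 3 stages, and 1.27% and 2.84% in the Gcn5 knockdown. H3K9me2 covered 0.316%, 0% and 0.592% of it at stages 4, 5 and 6. Genes also filled more of it, 48.6% of its bases against 26.7% of the block beyond and 70.3% of the rest of 2L. In this respect the first 200 kb, which held 27 of the 61 genes, lay between the arm and the rest of the block.

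The H3K9me3 territory began at nearly the same base in most lists. Its first peak in the block lay at chr2L:22200597-22201298 with a fold enrichment of 3.8 in w knockdown replicate 1 and at chr2L:22200638-22201325 with 3.85 in replicate 2. In WT it lay at chr2L:22200464-22202176 and chr2L:22200436-22201353. The nearest H3K9me3 peak outside the rule lay at chr2L:21989921-21990156 with a fold enrichment of 2.32 in w knockdown replicate 1 and at chr2L:21982717-21990551 with 2.64 in WT replicate 1. At w1118 stage 4 the first H3K9me3 peak in the block lay further in, at chr2L:22221230-22221451. The Gcn5 knockdown libraries began before the others, with their first peaks inside the block at chr2L:22021182-22022408 and chr2L:22016022-22016736, of 2.38 and 2.3 fold. The first of these peaks lay within tio, which encodes the zinc-finger protein Tiptop, and the second in CG31693.

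**Figure D1:**
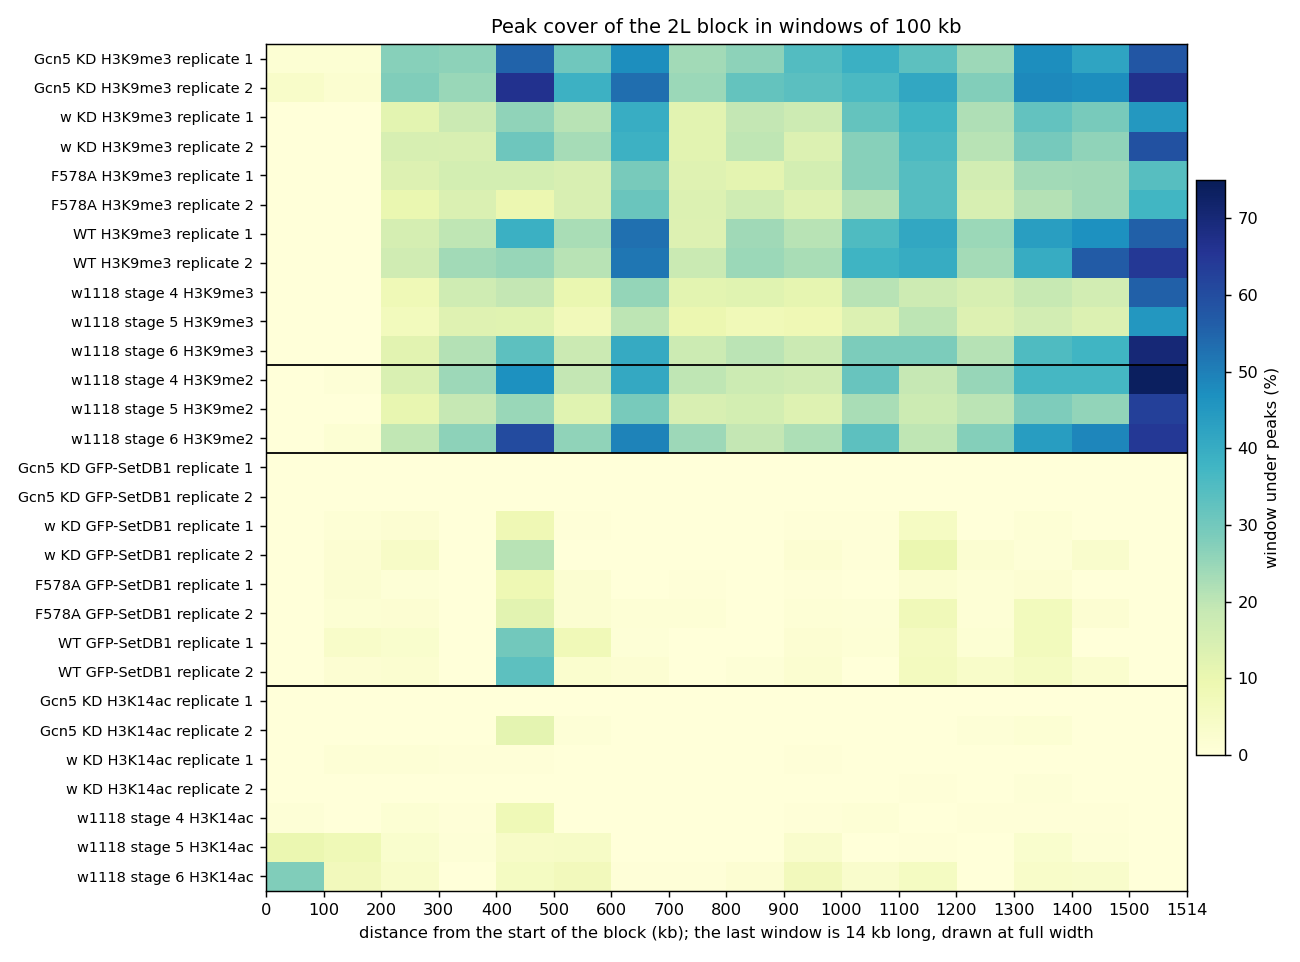
Share of each 100 kb window of the block under peaks, in percent, for the 29 libraries in rows and 16 windows from 22 Mb in columns; the last window holds only the end of the arm. H3K9me3 and H3K9me2 peaks lie in every window beyond the first 200 kb. H3K14ac of stages 5 and 6 is highest in the first window, and GFP-SetDB1 is highest in the window 400 to 500 kb into the block.

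H3K9me3 covered more of the block in the Gcn5 knockdown than in the w knockdown. The Gcn5 knockdown libraries had 206 and 208 peaks over 467 and 516 kb, against 142 and 136 peaks over 324 and 314 kb in the w knockdown libraries. Covered length averaged 32.5% ± 2.31 of the block in the Gcn5 knockdown and 21.1% ± 0.470 in the w knockdown (SD, n = 2 each), a ratio of 1.54 with an exact permutation p of 0.33. The groups did not overlap. Both Gcn5 knockdown libraries shared 394 kb and both w knockdown libraries 263 kb. A length of 94.7 kb lay in both Gcn5 knockdown libraries and in neither w knockdown library, against 10.2 kb the other way round.

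The higher cover rested on peaks below a stricter limit, which turned the direction round. Median −log10 q of the block's peaks was 2.15 and 2.24 in the Gcn5 knockdown and 2.40 and 2.69 in the w knockdown. Peaks with a −log10 q of at least 5 numbered 15 and 21 in the Gcn5 knockdown and 27 and 25 in the w knockdown, and covered 5.37% of the block in the Gcn5 knockdown and 8.32% in the w knockdown on average (log2 ratio -0.63). With the same number of peaks taken from each list, the strongest 3984, covered shares were 28.8% and 30.5% in the Gcn5 knockdown and 21.2% and 20.8% in the w knockdown. Depth was 1.64 and 2.17 M fragments in the Gcn5 knockdown and 2.41 and 2.56 M in the w knockdown, and its part in this difference was not tested. Fold enrichment was 3.24 and 3.06 in the Gcn5 knockdown and 3.43 and 3.47 in the w knockdown, and on the 233 kb under peaks in all 4 libraries it was 3.60 and 3.45 against 3.59 and 3.60.

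The covered share was higher in the Gcn5 knockdown outside the block too, by a similar ratio. The ratio of the covered share between the groups had a log2 of 0.62 in the block, 0.54 on the rest of 2L and 0.52 in the pericentromeric parts of chromosome 3, where 37.3% and 42.2% were covered in the Gcn5 knockdown and 28.4% and 27.1% in the w knockdown. The log2 of block over rest of arm differed by 0.0853 between the groups (exact permutation p = 0.667), and the groups overlapped in this measure.

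In bins of 5 kb, counted as covered when peaks took at least 50% of the bin, 79 of the block's 303 bins were covered in both Gcn5 knockdown libraries and 47 in both w knockdown libraries. Bins covered in both Gcn5 knockdown libraries and in neither w knockdown library numbered 26, which is 8.58% of the block's bins against 1.19% of the 27512 bins of the main chromosomes. Only bins with H3K9me3 peaks can be called. These peaks covered 17.7 to 20.9 times as large a share of the block as of the rest of 2L in the 4 lists. A larger share of called bins in the block is therefore not by itself a larger change there. The opposite pattern was met in 1 bin, against 0.12% of all bins, and it lay at 22.62 Mb in CG40006. Of the 19 stretches formed by the 26 bins, 16 touched no gene, and the longest ran over 3 bins from 22.41 to 22.425 Mb. Genes filled 29.6% of the block's bases. The 3 stretches on genes lay in CG40006, the longest gene of the block, and in lt.

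**Figure D2:**
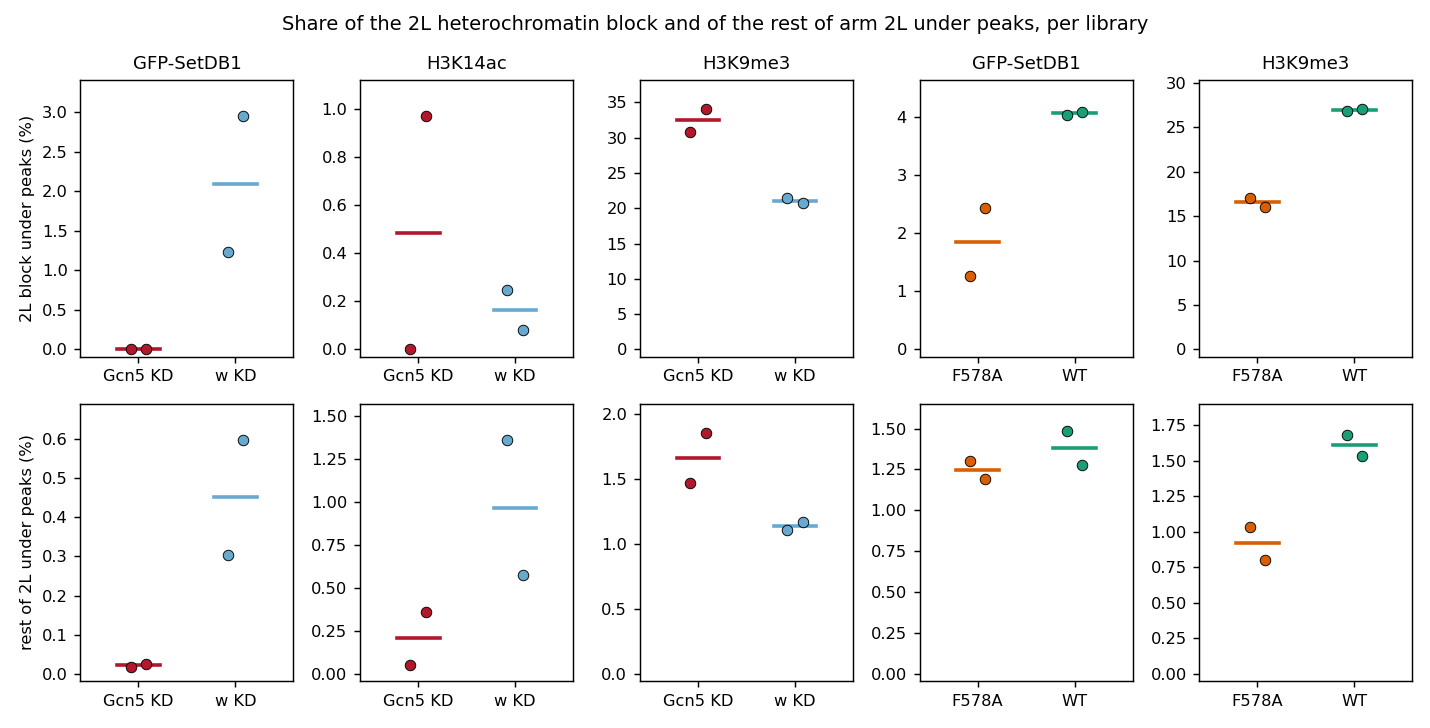
Share of the block (top) and of the rest of 2L (bottom) under peaks, in percent, for the 5 comparisons of groups. Points are libraries and bars are means of 2 libraries. H3K9me3 covers 30.8% and 34.1% of the block in the Gcn5 knockdown and 21.4% and 20.8% in the w knockdown, and 17% and 16.1% in F578A and 26.8% and 27.1% in WT.

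GFP-SetDB1 had no peak in the block in the Gcn5 knockdown. It had 0 and 0 peaks there, against 25 and 37 peaks over 18.7 and 44.7 kb in the w knockdown, which covered 1.24% and 2.95% of the block with a fold enrichment of 2.00 and 1.97 (exact permutation p = 0.33 for number and for length). The difference was -2.09 percentage points, -2.95 without w knockdown replicate 1 and -1.24 without replicate 2. These lists were short as a whole, with 115 and 149 peaks in the Gcn5 knockdown and 963 and 1409 in the w knockdown, from 1.63 and 2.08 M fragments against 5.37 and 6.05 M. With the strongest 115 peaks of every list, all 4 libraries had 0 peaks in the block, so at equal list length nothing was left to compare, and the part of depth in the longer lists was not tested.

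GFP-SetDB1 was as scarce outside the block. Peaks on the rest of 2L covered 0.0176% and 0.0252% in the Gcn5 knockdown and 0.305% and 0.599% in the w knockdown, and in the pericentromeric parts of chromosome 3 they covered 0.0266% and 0.0375% against 1.29% and 2.10%. By 5 kb bins 0 of the block's bins were covered in both Gcn5 knockdown libraries only, against 0% of all bins, and 0 in both w knockdown libraries only, against 0.0509% of all bins. Peaks of the w knockdown were narrow, and with any overlap counted 22 bins were reached in both w knockdown libraries only.

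Few genes of the block differed. A gene was counted as lower when its share under peaks in both libraries of the first group lay below that of both libraries of the second. In the Gcn5 knockdown 3 of the 61 genes were lower, against 0.876% of all 17807 genes, and 0 were higher, against 0% of all genes. Ir40a, an ionotropic receptor gene at chr2L:22189526-22214376, had 0% and 0% of its body under GFP-SetDB1 peaks in the Gcn5 knockdown and 2.71% and 14.4% in the w knockdown. CG42748 had 0% and 0% against 2.75% and 3.14%. Marf1, a gene of meiosis and mRNA stability, had 0% and 0% against 0.406% and 0.406%, from a 244-bp peak at chr2L:22338906-22339149 that was the strongest of the block in w knockdown replicate 1, at 3.07 fold.

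H3K14ac in the knockdowns gave few peaks in the block, and replicates did not meet. The Gcn5 knockdown libraries had 0 and 20 peaks over 0 and 14.7 kb, against 7 and 4 peaks over 3.74 and 1.23 kb in the w knockdown (exact permutation p = 1). No peak in the block was shared between replicates in either group. Of the 20 peaks in Gcn5 knockdown replicate 2, 14 lay 400 to 500 kb into the block, and 19 overlapped an H3K9me3 peak of the same replicate. Without those 100 kb the direction turned, with a log2 ratio of -0.52 for covered length beside 1.56 with them. Without Gcn5 knockdown replicate 2 that group had 0 peaks, which is below both w knockdown libraries, and without replicate 1 the log2 ratio was 2.56. It was 2.58 without w knockdown replicate 1 and 0.97 without replicate 2, so single libraries set this value. Bins called in either direction numbered 0 and 0, against 0% and 0.0182% of all bins, and no gene was called, against 0.0281% of all genes higher and 4.12% lower.

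Along the rest of 2L H3K14ac covered 0.0479% and 0.360% in the Gcn5 knockdown and 1.36% and 0.571% in the w knockdown, without overlap between the groups (exact permutation p = 0.33). Depth was 1.47 and 1.87 M fragments in the Gcn5 knockdown and 5.34 and 3.14 M in the w knockdown, and its part in these counts was not tested. An H3K14ac peak on cta, which encodes a G protein alpha subunit needed for gastrulation, was among the few at a gene. It lay at chr2L:22982168-22982434 with a fold enrichment of 2.88 in Gcn5 knockdown replicate 2 and at chr2L:22981913-22982441 with 2.23 in w knockdown replicate 1.

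GFP-SetDB1 covered less of the block in F578A than in WT, while the groups overlapped on the rest of the arm. F578A libraries had 24 and 37 peaks over 19.1 and 36.9 kb, against 57 and 46 peaks over 61.3 and 61.8 kb in WT libraries. The covered share was 1.85% ± 0.832 in F578A and 4.07% ± 0.0253 in WT (SD, n = 2 each), a ratio of 0.455 with an exact permutation p of 0.33. Without F578A replicate 1 the log2 ratio was -0.74 and without F578A replicate 2 it was -1.69, around a value of -1.14 with both, so the size rested on which F578A library was used. The shares on the rest of 2L were 1.30% and 1.19% in F578A and 1.49% and 1.28% in WT, and the groups overlapped (exact permutation p = 0.667).

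The log2 of block over rest of arm was -0.0439 and 1.03 in F578A and 1.44 and 1.67 in WT, a difference of -1.07 (exact permutation p = 0.33). The pericentromeric parts of chromosome 3 had 1.19% and 2.91% under peaks in F578A and 4.17% and 4.74% in WT, a log2 ratio of -1.12 beside -1.14 in the block. Depth was 8.08 and 7.69 M fragments in F578A and 8.93 and 9.43 M in WT. With the strongest 2345 peaks of each list the block held 18 and 37 peaks in F578A and 25 and 41 in WT, over 1.03% and 2.44% against 2.46% and 3.89% of its length. Fold enrichment was slightly lower in F578A, at 1.82 and 1.88 against 1.92 and 1.90 in WT. On the 7.04 kb under peaks in all 4 libraries it was 1.85 and 1.86 in F578A against 2.02 and 1.96 in WT. The groups did not overlap in either measure.

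Replicates shared 48.7% and 25.2% of their GFP-SetDB1 bases in F578A and 57.7% and 57.2% in WT. Both F578A libraries shared 9.29 kb and both WT libraries 35.4 kb, with 16.4 kb in both WT libraries and neither F578A library and 0.942 kb the other way round. By bins, 3 were covered in both WT libraries only, against 0.363% of all bins, and 0 in both F578A libraries only, against 0.0254%. The 3 bins lay at 22.42 to 22.43 Mb and 22.455 to 22.46 Mb, in DNA without an annotated gene. GFP-SetDB1 peaks that overlapped H3K9me3 of the same replicate made up 41.7% and 35.1% of the block's peaks in F578A and 56.1% and 69.6% in WT. The same overlap on the rest of 2L was 4.23% and 7.33% in F578A and 11.7% and 14.5% in WT. In the pericentromeric parts of chromosome 3 it was 32.3% and 19.5% in F578A and 57.8% and 66.8% in WT.

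H3K9me3 also covered less of the block in F578A, with nearly as many peaks. F578A libraries had 118 and 105 peaks over 258 and 243 kb, against 120 and 123 peaks over 406 and 410 kb in WT libraries. The covered share averaged 16.5% ± 0.689 in F578A and 26.9% ± 0.158 in WT (SD, n = 2 each), a ratio of 0.614 (exact permutation p = 0.33). Median peak length was 1296 and 1582 bp in F578A and 2144.5 and 2042 bp in WT, and fold enrichment was higher, at 3.58 and 3.60 in F578A and 3.09 and 2.91 in WT. On the 187 kb under peaks in all 4 libraries fold enrichment was 3.79 and 3.76 in F578A and 3.51 and 3.27 in WT.

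H3K9me3 shared by both F578A libraries lay almost wholly inside the WT territory. Of the length shared by both F578A libraries 95.5% was under peaks in all 4 libraries, against 54.9% of that shared by both WT libraries. A length of 83.4 kb lay in both WT libraries and neither F578A library, against 1.82 kb the other way round. H3K9me3 cover was lower in F578A outside the block too, with log2 ratios of -0.70 in the block, -0.81 on the rest of 2L and -0.69 in the pericentromeric parts of chromosome 3. F578A libraries held 1.46 and 1.43 M fragments and WT libraries 2.63 and 2.47 M, and the part of depth was not tested. With the strongest 3168 peaks of each list, covered shares were 16.9% and 16.1% in F578A and 26.1% and 26.0% in WT.

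By 5 kb bins, 34 were covered in both F578A libraries and 62 in both WT libraries. Bins covered in both WT libraries only numbered 17, which is 5.61% of the block's bins against 1.67% of all bins, and 0 were covered in both F578A libraries only, against 0.00363%. Here too only bins with H3K9me3 peaks could be called, and the block is rich in them. All 17 were single bins, 14 without a gene and 3 in CG40006, in a block where genes filled 29.6% of the bases. The bins covered only in the Gcn5 knockdown and those covered only in WT had 2 in common, 7.69% of the 26 and 11.8% of the 17. The overlap over all bins was not counted.

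Most genes of the block had no called peak of H3K9 methylation, though a smaller share lacked one than over all genes. No H3K9me3 or H3K9me2 peak touched 37 of the 61 genes in any of the 14 libraries of these marks, which is 60.7% against 93.2% of all 17807 genes. They included 22 protein-coding genes, among them cta, Clamp, which encodes a zinc-finger protein of dosage compensation, Tim23, of the import machinery of mitochondria, and CycK, a cyclin of transcription. An H3K9me3 peak touched 6 genes in all 11 H3K9me3 libraries, or 9.84% against 1.12% of all genes, and 4 of these code for protein: Marf1, CG17493, CG40006 and lt. The number of genes with an H3K9me3 peak was 15 and 19 in the Gcn5 knockdown, 9 and 10 in the w knockdown, 7 and 9 in F578A and 10 and 10 in WT. Over all genes the share with a peak was 3.57% and 3.89% in the Gcn5 knockdown, 3.66% and 3.37% in the w knockdown, 2.73% and 2.62% in F578A and 2.68% and 2.56% in WT, against 11.5% to 31.1% of the genes of the block.

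H3K9me3 was denser between genes than in them. It covered 36.4% and 40.2% of the DNA between genes and 17.6% and 19.6% of gene bodies in the Gcn5 knockdown, and 26.0% and 25.6% against 10.6% and 9.22% in the w knockdown. In F578A it covered 21.5% and 19.8% between genes and 6.37% and 7.12% of gene bodies, and in WT 33.1% and 32.9% against 11.9% and 13.1%. The order of the groups was therefore the same in both kinds of DNA.

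More of the genes' length lay under H3K9me3 in the Gcn5 knockdown. In 9 of 61 genes, or 14.8% against 1.81% of all genes, the share was higher in both Gcn5 knockdown libraries than in both w knockdown libraries, and in 0 it was lower, against 1.08% of all genes. Of these 9 genes, 8 code for protein. A larger share of the block's genes than of all genes had an H3K9me3 peak, so a larger share of them could be called. For lt, at chr2L:22924795-22943135, which encodes a Vps41 protein of endosome to lysosome transport, 43.9% and 37.5% of the gene lay under peaks in the Gcn5 knockdown and 5.22% and 1.97% in the w knockdown. These were 4 and 3 peaks of up to 5325 and 3546 bp in the Gcn5 knockdown, against 2 and 1 of up to 656 and 362 bp in the w knockdown.

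The pseudogene CR12628 lay almost wholly under H3K9me3 in the Gcn5 knockdown, at 86.6% and 92.6%, against 0% and 0% in the w knockdown. For tio the shares were 18.8% and 43.7% in the Gcn5 knockdown and 0% and 0% in the w knockdown. None of these peaks reached the stricter limit: with a −log10 q of at least 5, CR12628, lt and tio had 0% in both groups. The highest −log10 q on lt was 2.91 and 3.05 in the Gcn5 knockdown, above the block's medians of 2.15 and 2.24 there. Few peaks of these libraries reached 5, with 15 of 206 and 21 of 208. With equal numbers of peaks CR12628 averaged 46.3% in the Gcn5 knockdown and 0% in the w knockdown.

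CG40006, which spans 133933 bp at chr2L:22622417-22756349, had 38.3% and 40.5% under H3K9me3 in the Gcn5 knockdown and 26.9% and 23.8% in the w knockdown. Cht10, a chitinase gene also known as Cht3, had 15.4% and 21.5% in the Gcn5 knockdown and 3.35% and 9.27% in the w knockdown. Marf1 had 10.3% and 6.96% against 4.31% and 1.32%. The other 3 genes were CG3635, CG17490 and Ir40a, whose shares ranged up to 11.2% in the Gcn5 knockdown and up to 3.89% in the w knockdown.

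In F578A, 8 of 61 genes, or 13.1% against 1.43% of all genes, had a lower H3K9me3 share in both libraries than in both WT libraries, and 0 a higher one, against 0.511% of all genes. Of these 8, 6 code for protein. As above, a larger share of the block's genes than of all genes had a peak and could be called. The long non-coding RNA gene lncRNA:CR46253 had 18.5% and 19.3% under peaks in F578A and 55% and 48.1% in WT. The pseudogene CR42530 had 0% and 8.39% in F578A and 32.4% and 40.9% in WT, and 0% in both groups with a −log10 q of at least 5.

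CG40006 had 16.7% and 19.0% in F578A and 29.3% and 32.5% in WT, and Cht10 had 0% and 0% against 8.77% and 12.4%. RpL5, which encodes a protein of the large ribosomal subunit, had 0% and 6.12% in F578A and 9.44% and 11% in WT. The gene lt had 1.68% and 1.52% in F578A and 10.8% and 2.19% in WT, where most of the WT mean came from 1 library. CG40006, Cht10, lt, Ir40a and Marf1 were on both lists, 5 of the 9 and 5 of the 8 genes. They were higher in the Gcn5 knockdown than in the w knockdown and lower in F578A than in WT. How many of all genes were on both lists was not counted, so this overlap has no share over all genes beside it.

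Several named genes overlapped between groups. CG17493, with a high H3K9me3 share, had 46% and 42.7% in the Gcn5 knockdown, 47.1% and 28.0% in the w knockdown, 41.4% and 43.7% in F578A and 43.1% and 47.0% in WT, and the groups overlapped in both comparisons. RpL5, lower in F578A than in WT, overlapped between the knockdowns, with 0% and 24.6% in the Gcn5 knockdown and 15.2% and 18.8% in the w knockdown. CG42748 and CG17715 had no H3K9 methylation peak in any library, and CG12567 had 7.93% under H3K9me3 in Gcn5 knockdown replicate 2 alone. Genes ranked by H3K9me3 in the w knockdown also brought in RpL21, with 34.8% in replicate 2 only, and CG10834, CG15219 and CG17490, which had 0% there. CG17490 was among the genes higher in the Gcn5 knockdown, with 3.28% and 7.58%.

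**Figure D3:**
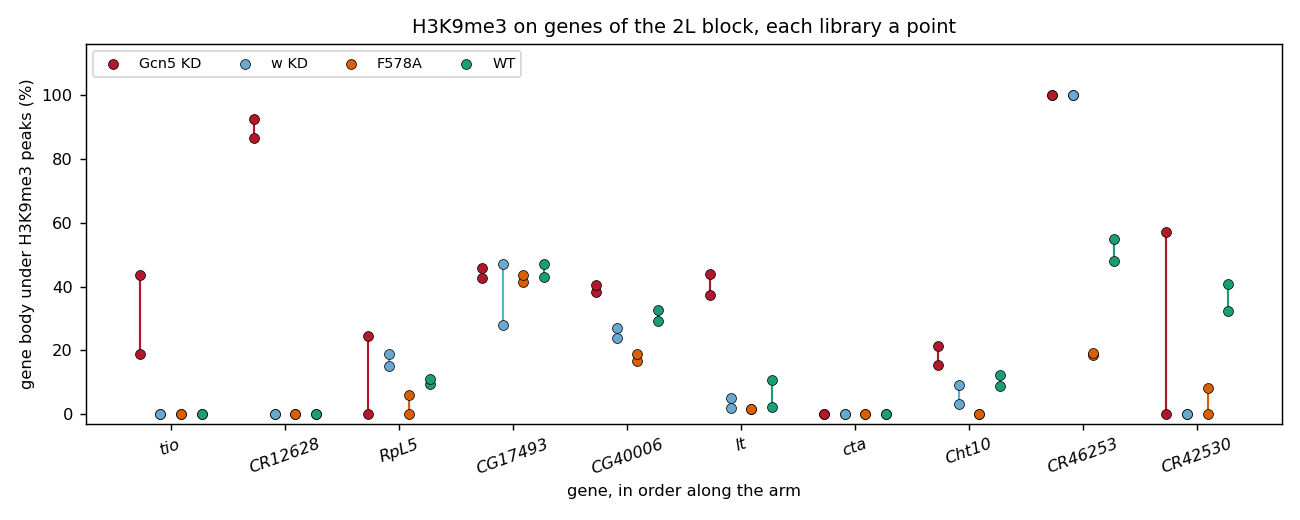
Share of the gene body under H3K9me3 peaks, in percent, for 10 genes of the block in the Gcn5 knockdown, the w knockdown, F578A and WT; each point is a library. The gene lt reaches 43.9% and 37.5% in the Gcn5 knockdown and 5.22% and 1.97% in the w knockdown, while cta stays at 0% in every group.

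GFP-SetDB1 touched few genes in the block, where genes filled 29.6% of the bases. It was on a gene with 6 of 24 and 3 of 37 peaks in F578A, 11 of 57 and 2 of 46 in WT and 6 of 25 and 6 of 37 in the w knockdown. In F578A 2 genes were lower than in WT, against 2.53% of all genes, and 0 were higher, against 1.47%. They were dunk, a gene of the forming blastoderm, with 81.3% and 80.6% under peaks in F578A and 81.6% and 100% in WT, and CG42748, within whose bounds dunk lies, with 2.61% and 2.77% against 4.19% and 4.22%. One peak gives both genes their value, at chr2L:22151511-22152986 in WT replicate 2, so they are not separate, and in WT replicate 1 CG42748 had a further peak at chr2L:22146268-22146904. For dunk the F578A and WT libraries lay within 1 percentage point of each other apart from that 1 library.

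The block's GFP-SetDB1 was densest in a 100 kb stretch without an annotated gene, 400 to 500 kb into the block, between Marf1 and RpL5. It covered 8.77% and 12% of that stretch in F578A, 30.1% and 33.4% in WT, 0% and 0% in the Gcn5 knockdown and 8.46% and 20.6% in the w knockdown. Of all the covered length in the block, 45.9% and 32.6% lay there in F578A, 49.1% and 54% in WT and 45.2% and 46.1% in the w knockdown. The stretch was chosen after the values were seen.

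Other marks met in the same place. H3K9me3 covered 55.1% and 66.4% of the stretch in the Gcn5 knockdown and 26.1% and 30.7% in the w knockdown, and 15.7% and 9.40% in F578A against 39.0% and 25% in WT. In w1118 embryos H3K14ac covered 8.12%, 4.15% and 5.45% of it at stages 4, 5 and 6, which made it the window richest in H3K14ac at stage 4. The GFP-SetDB1 peaks there were long and weak, up to 8279 bp at chr2L:22420677-22428955 in WT replicate 1, with a fold enrichment of 1.78.

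A second stretch without genes, 1090 to 1130 kb into the block, carried GFP-SetDB1, with no H3K14ac peak at the w1118 stages, and it too was chosen after the values were seen. GFP-SetDB1 covered 4.11% and 19.2% of it in F578A, 12.4% and 15.3% in WT and 14.4% and 23.1% in the w knockdown. H3K9me3 covered 72.0% and 66.9% in F578A, 74.1% and 74.1% in WT, and 54.7% and 49.6% in the Gcn5 knockdown against 71.4% and 66.2% in the w knockdown. H3K9me3 was lower here in the Gcn5 knockdown, the opposite of the block as a whole. The longest H3K9me3 peaks of WT lay in it or ran beyond its end, 26190 bp at chr2L:23110884-23137073 with a fold enrichment of 6.62 in replicate 1 and 20212 bp at chr2L:23110898-23131109 with 5.88 in replicate 2.

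Merged over the 6 libraries of F578A, WT and the w knockdown, GFP-SetDB1 peaks formed 91 regions, of which 72 touched no gene. Genes filled 29.6% of the block's bases, so most of its DNA lay outside them. A peak in all 6 libraries was found in 4 regions, each without a gene. At chr2L:23112741-23116319 fold enrichment was 1.79 and 2.00 in F578A, 2.43 and 2.50 in WT and 2.32 and 2.23 in the w knockdown. At chr2L:23372708-23376403 it was 2.28 and 2.06 in F578A, 2.27 and 2.17 in WT and 2.16 and 1.92 in the w knockdown. The first region was weaker in F578A without overlap with WT, and the second overlapped between these groups.

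The other regions found in all 6 lay 400 to 500 kb into the block. At chr2L:22420603-22434514 fold enrichment was 1.55 and 1.58 in F578A, 1.80 and 1.83 in WT and 1.85 and 1.79 in the w knockdown. At chr2L:22457352-22462087 it was 1.65 and 1.67 in F578A, 1.87 and 1.94 in WT and 1.94 and 1.73 in the w knockdown. In both of these F578A was lower than WT in each library.

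The overlap of GFP-SetDB1 with w1118 H3K14ac differed with stage and group. Of the block's peaks 29.2% and 18.9% in F578A and 35.1% and 15.2% in WT overlapped a stage 6 H3K14ac peak. Over the rest of 2L the overlap was 72.4% and 64.8% in F578A and 65.8% and 63.5% in WT, and stage 6 H3K14ac covered 24.6% of that DNA and 4.99% of the block. In the w knockdown the stage 6 overlap was 12% and 18.9% in the block and 17.8% and 20.5% on the rest of the arm. For stage 4 H3K14ac the overlap in the block was 8.33% and 5.41% in F578A, 15.8% and 15.2% in WT and 16% and 13.5% in the w knockdown. On the rest of the arm it was 17.7% and 14.7% in F578A, 15.3% and 15.5% in WT and 0% and 2.05% in the w knockdown. The stage 5 overlap in the block was 20.8% and 24.3% in F578A and 26.3% and 17.4% in WT. On the rest of the arm it was 58.9% and 51.3% in F578A and 52.0% and 51.0% in WT. In the w knockdown it was 16% and 8.11% in the block and 19.2% and 13.7% on the rest of the arm. The block was thus below the arm in F578A and WT at stages 5 and 6. At stage 4 it was below the arm in F578A, close to it in WT and above it in the w knockdown. In the w knockdown the 2 parts overlapped at stages 5 and 6. H3K14ac itself covered less of the block than of the rest of the arm. Its shares at stages 4, 5 and 6 were 0.881%, 2.47% and 4.99% against 2.82%, 9.51% and 24.6%. The overlap was not set in proportion to this cover, so a lower overlap in the block is not by itself a weaker link there.

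**Figure D4:**
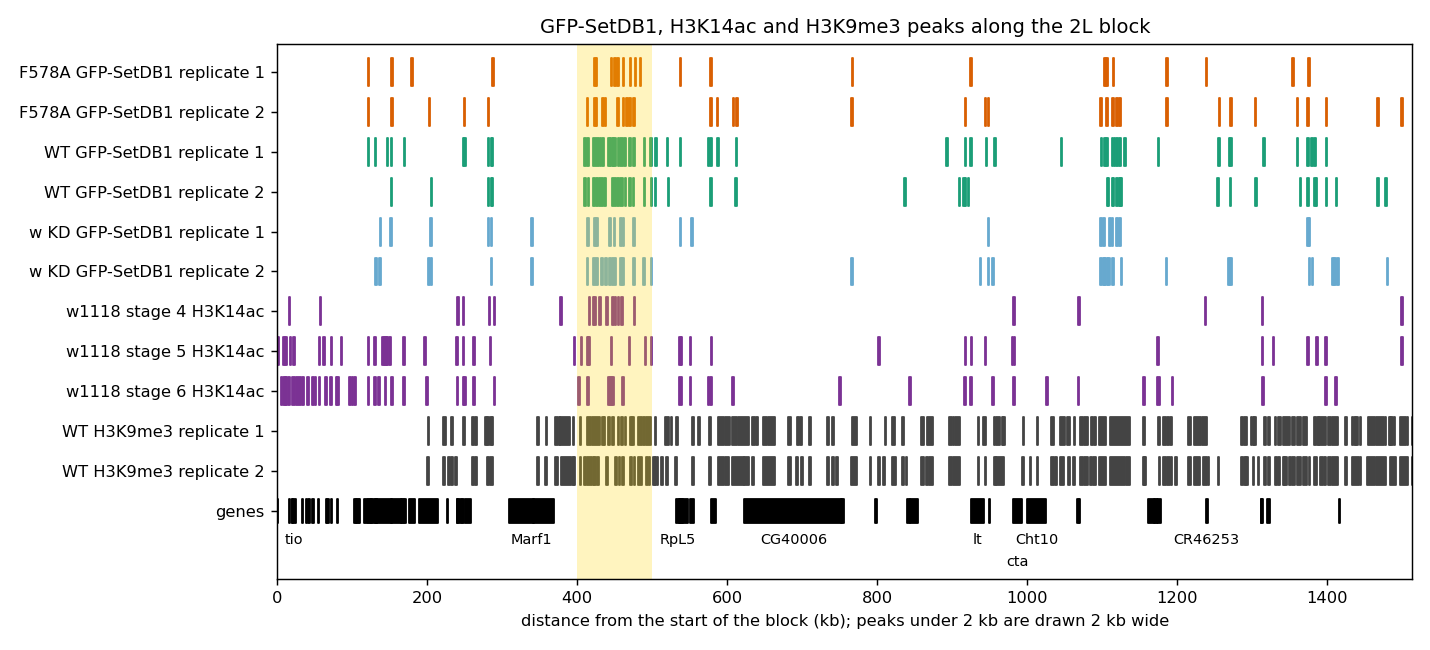
Peaks of GFP-SetDB1 in F578A, WT and the w knockdown, of H3K14ac at stages 4, 5 and 6 and of H3K9me3 in WT along the block, with genes, by distance from 22 Mb in kb; peaks under 2 kb are drawn 2 kb wide. The shaded band marks the stretch 400 to 500 kb into the block, where GFP-SetDB1 covers 8.77% and 12% in F578A and 30.1% and 33.4% in WT, and no gene is annotated.

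In w1118 embryos the number of H3K14ac peaks in the block was 22 at stage 4, 47 at stage 5 and 56 at stage 6, over 13.3, 37.4 and 75.5 kb. They covered 0.881%, 2.47% and 4.99% of the block at stages 4, 5 and 6, against 2.82%, 9.51% and 24.6% of the rest of 2L. With 1 library per stage these values have no replicate check. The difference between stages was largest in the first 200 kb, where 0.296%, 8.98% and 17.4% lay under peaks at the 3 stages, against 0.970%, 1.48% and 3.11% beyond it. At stage 6 the first 100 kb window alone stood at 27.8%.

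At the later stages more of the H3K14ac peaks lay on genes and fewer on H3K9me3. Peaks that touched a gene were 6 of 22, 23 of 47 and 31 of 56 at stages 4, 5 and 6. Median peak length was 405.5, 633 and 921.5 bp at these stages. In the first 200 kb, where genes are denser, lay 2, 18 and 26 of the peaks. The part of length and position in the share on genes was not tested. Peaks that overlapped H3K9me3 of the same stage were 13 of 22, 11 of 47 and 9 of 56, or 59.1%, 23.4% and 16.1%. That overlap was 1.45%, 0.458% and 1.7% on the rest of 2L. In the pericentromeric parts of chromosome 3 it was 47.2%, 33.3% and 30.9%, so it was lower at the later stages there too. Of the 22 stage 4 peaks 6 overlapped a stage 5 peak, and 10 overlapped a stage 6 peak. All 22 were weak, with a highest −log10 q of 3.95.

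An H3K14ac peak touched 7 of the 61 genes at stage 4, 22 at stage 5 and 38 at stage 6, and 6, 18 and 28 of the 37 protein-coding genes. These were 11.5%, 36.1% and 62.3% of the genes of the block, against 14.7%, 42.7% and 55.7% of all genes, so the shares in the block stayed near those of the genome. In the first 200 kb 1, 9 and 16 of 27 genes had one, and beyond it 6, 13 and 22 of 34. A peak at all 3 stages was found on 5 genes, or 8.2% against 12.8% of all genes, all protein-coding: CG31693, Nubpl, RpL21, cta and Tim23. RpL21, a ribosomal protein gene, had 35.7%, 67.2% and 78.0% of its body under H3K14ac at stages 4, 5 and 6, with 3.68 fold at stage 6, the highest H3K14ac value of the block. On cta, deep in the block at chr2L:22981816-22992951, the peak at its lower-coordinate end was the strongest of stage 4, with 2.74 fold, and had 1.87 and 2.60 fold at stages 5 and 6, while no H3K9 methylation peak touched the gene in any library.

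Some genes carried both marks. An H3K14ac peak and an H3K9 methylation peak were each found in some library on 16 genes, or 26.2% against 5% of all genes, 13 of them protein-coding. On lt an H3K14ac peak lay at the lower-coordinate end, at chr2L:22924911-22925131 with 1.99 fold at stage 5 and chr2L:22924060-22925181 with 2.11 fold at stage 6. GFP-SetDB1 peaks lay over the same end in F578A replicate 1, at chr2L:22924554-22925009, and in WT replicate 1, at chr2L:22924591-22925028. On tio H3K14ac covered 44.7% at stage 5 and 65.6% at stage 6, with no H3K9me3 peak in w1118. In the Gcn5 knockdown, where tio had H3K9me3, neither H3K14ac library had a peak on it, and neither did those of the w knockdown. A further 14 genes, 7 of them protein-coding, had no peak of any kind in any of the 29 libraries, or 23% against 36% of all genes.

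**Figure D5:**
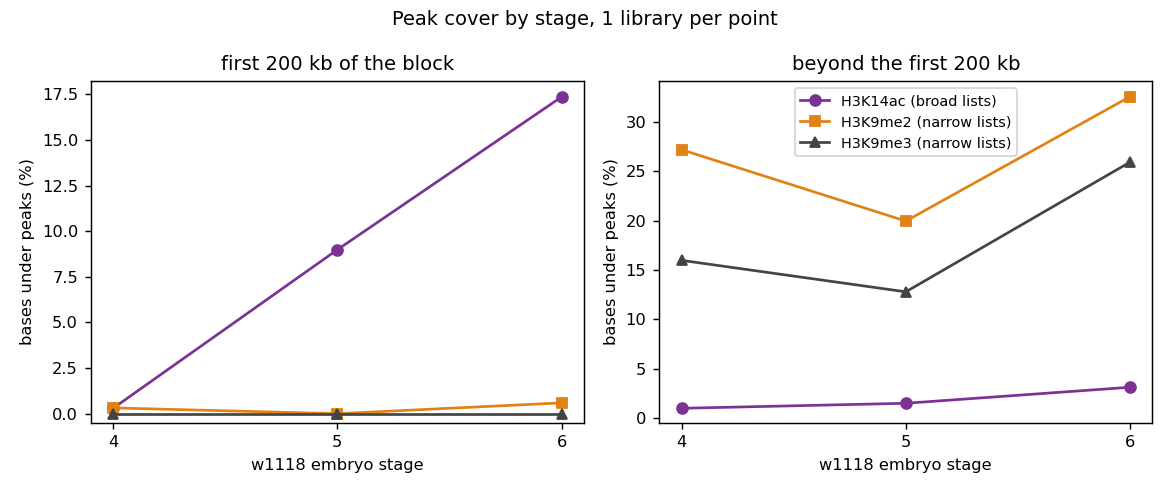
Share under peaks in percent at w1118 stages 4, 5 and 6 (1 library per point) for H3K14ac, H3K9me2 and H3K9me3, in the first 200 kb of the block and beyond them. H3K14ac in the first 200 kb stands at 0.296%, 8.98% and 17.4%, while H3K9me3 there is 0% at each stage and lies beyond them.

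H3K9 methylation peaks in w1118 were present at stage 4, covered less of the block at stage 5 and most at stage 6. With 1 library per stage, of unknown depth, this order has no replicate check. The whole lists had the same order, with 8542, 8038 and 9110 H3K9me2 peaks and 6743, 5716 and 7968 H3K9me3 peaks. So did the pericentromeric parts of chromosome 3, where H3K9me3 covered 20.4%, 16.6% and 32.7%. In the block H3K9me2 had 345, 309 and 400 peaks over 358, 262 and 429 kb at stages 4, 5 and 6. There H3K9me3 had 269, 231 and 331 peaks over 210, 168 and 341 kb. Fold enrichment at the summits went with stage in another order, 4.65, 4.05 and 4.01 for H3K9me2 and 6.04, 5.26 and 5.16 for H3K9me3. The narrow form of these lists makes their lengths not comparable with the broad lists above.

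Stage 6 included most of the earlier H3K9 methylated territory. Of the bases under H3K9me3 peaks at stages 4 and 5, 92.0% and 95.9% lay under stage 6 peaks. A length of 231 kb of H3K9me2 and 136 kb of H3K9me3 was under peaks at all 3 stages, and 92.1 and 122 kb were under peaks at stage 6 only. Of the stage 5 H3K9me3 peaks 96.5% overlapped a stage 6 peak, and of the stage 6 peaks 51.7% overlapped a stage 5 peak. H3K9me3 lay mostly within H3K9me2, with 89.4%, 85.0% and 84.8% of its bases under H3K9me2 of the same stage. H3K14ac behaved otherwise, with 1.32 kb under peaks at all 3 stages and 51.8 kb at stage 6 only.

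The strongest H3K9me3 sat at the same place in most groups, in or beside lncRNA:CR46253. The peak there was at chr2L:23233769-23241826 with 6.65 fold and chr2L:23233848-23242065 with 6.50 fold in the Gcn5 knockdown, against chr2L:23234064-23241585 with 8.04 fold and chr2L:23233860-23241538 with 8.02 fold in the w knockdown. In F578A its fold enrichment was 7.25 and 6.54, and in WT it was 4.28 and 4.10. At stages 4, 5 and 6 the strongest peak of the block lay there as well, with 13.5, 11.5 and 12.1 fold at the summit. The site was weaker in the Gcn5 knockdown than in the w knockdown and stronger in F578A than in WT, in every library.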

How the data were processed

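Each ChIP-seq library had its own peak list. The 20 lists of the knockdown, F578A and WT embryos were called with MACS 2.2.6 on paired-end fragments against input, with a broad cutoff of 0.1 and duplicates removed, per the file headers. The 9 w1118 lists had no settings, and 6 of them were narrow. Trim Galore 0.6.0, Bowtie2 2.3.5.1 and MACS2 2.2.6 are named per the submitters' processing notes. Values used were the authors' deposited fold enrichment over control (a ratio) and −log10 q-value. The authors also deposited a −log10 p-value and a pileup signal, which were not compared across libraries. The 12 RNA tables give no positions and were not used.

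Peaks were selected by midpoint, merged and summed with Python 3.11.15, numpy 2.4.6 and pandas 2.3.3, in 1-based dm6 coordinates, and the scripts were tested on simulated data. Groups were compared by an exact two-sided permutation test over libraries. Members and lists were chosen with earlier results of these data known. Named genes were lt, cta, RpL5 and Cht3, the 10 longest protein-coding genes, the 5 with the most H3K9me3 in the w knockdown, and up to 3 per comparison with the largest difference among genes whose groups did not overlap. Genes named for being in a class, such as Clamp, CycK, Tim23 and Nubpl, were chosen after their values were seen. Alternatives were a start 500 kb further in, a −log10 q of at least 5, equal numbers of peaks, other bins, each replicate left out and a replicate block.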

Additional observations from a re-analysis of the deposited data

How the results depend on the processing

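Of 72 values of the comparisons under other settings 63 kept their direction and 6 reversed. All 50 values that could be given with a replicate left out kept it. Where 2 groups do not overlap, leaving a library out cannot turn the direction, so these values are no check of it. Only the H3K14ac groups overlapped. H3K14ac without Gcn5 knockdown replicate 2 gave no ratio, since that group then had 0 peaks, below both w knockdown libraries. With a −log10 q of at least 5, H3K9me3 in the Gcn5 knockdown against the w knockdown reversed, with log2 ratios of -0.53 for number, -0.63 for covered length and 0.019 for fold enrichment. H3K14ac in the same comparison reversed without the stretch 400 to 500 kb into the block, a setting added after seeing the data, to -0.58 for number and -0.52 for length, and its number had a log2 ratio of 0 with a start 500 kb further in. The number of H3K9me3 peaks in F578A against WT had a log2 ratio of 0.0608 with equal numbers of peaks. With equal numbers GFP-SetDB1 in the Gcn5 knockdown minus the w knockdown differed by 0 peaks and 0 percentage points, with no peak left in either group. The cause was not tested.

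Counts of bins moved with bin size and threshold. For GFP-SetDB1, bins in both w knockdown libraries only were 5 with 2 kb bins and 22 with any overlap, those in both WT libraries only were 7 with 2 kb bins, 8 with any overlap and 0 with −log10 q of at least 5, and those in both F578A libraries only were 2 with any overlap. For H3K9me3, bins in both Gcn5 knockdown libraries only were 57 with 2 kb bins and 0 with −log10 q of at least 5, and those in both w knockdown libraries only were 3 with 2 kb bins, 10 with −log10 q of at least 5 and 0 with any overlap. Bins in both WT libraries only were 41 with 2 kb bins and 3 with −log10 q of at least 5, and in both F578A libraries only 1 with 2 kb bins. H3K14ac at stages 4, 5 and 6 had 5, 17 and 19 peaks over 0.281%, 1.15% and 3.13% with a start 500 kb further in, and 0, 2 and 14 peaks over 0%, 0.125% and 1.69% with −log10 q of at least 5.

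Over bins, the difference of replicate 1 minus replicate 2 in 1 group was correlated with the same difference in the other group. This correlation was 0.0776, -0.0687 and 0.0479 for GFP-SetDB1, H3K14ac and H3K9me3 of the knockdowns. It was 0.189 and 0.028 for GFP-SetDB1 and H3K9me3 of F578A and WT, and numbers were not taken as pairs. With a replicate block the log2 ratios of covered length were 0.62 for H3K9me3 in the knockdowns, and -1.21 for GFP-SetDB1 and -0.70 for H3K9me3 in F578A against WT, with a smallest possible sign-flip permutation p of 0.5. It changed no direction, and it could not do so for groups that do not overlap. H3K14ac could not be blocked, nor compared in length at equal numbers, since a library had 0 peaks. The part of depth was not tested, and peak lists hold nothing below the caller's threshold, so 0 peaks is not 0 signal.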

Other observations

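GFP-SetDB1 peaks that did occur on 2L in the Gcn5 knockdown lay almost wholly in the histone gene array, 119 genes at chr2L:21404181-21543688, outside the block. The rest of 2L held 8 and 9 peaks in the Gcn5 knockdown, of which 8 and 8 lay within the array, against 73 and 146 peaks in the w knockdown, of which 25 and 31 did. On a histone gene itself lay 3 and 4 of the Gcn5 knockdown peaks.

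A peak at the end of the arm, at chr2L:23512812-23513672 in w knockdown replicate 1, had a −log10 q of 1230 with a fold enrichment of 6.01. The peak with the highest fold enrichment of the block in that list, at lncRNA:CR46253, had a −log10 q of 39.4 with 8.04 fold.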
